A study of Mus musculus with 24 samples.

Results

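The genes described here encode the integrins and the proteins of the focal adhesion, the plaque through which integrins hold the actin cytoskeleton to the extracellular matrix. They are 39 genes of the 54752 in the count table, found by gene symbol: 17 integrin alpha subunits, 8 beta subunits, 5 genes of the ILK, PINCH and parvin complex, 5 kindlins and talins, and vinculin, FAK, paxillin and zyxin. The study sequenced RNA from the ductus arteriosus (DA), the fetal vessel that joins the pulmonary artery to the aorta, and from the ascending aorta, both taken at E18.5 from mouse embryos on a C57/Black6 background. Its comparisons ask what loss of Prdm6 does to each vessel and what sets the DA apart from the aorta. Both vessels were microdissected, and paired-end libraries were made from 20 to 59 ng of RNA for the DA and 94 to 210 ng for the aorta. Vessel and RNA input therefore cannot be told apart.

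Prdm6-deficient embryos, labelled Wnt1Cre;PRDM6f/f, carry the transgene the study names Wnt1Cre2, in which a Wnt1 promoter drives Cre in the neural crest, so cells of other origin keep the floxed gene. They gave 5 DA libraries, numbered 1, 2, 5, 6 and 7, and 5 aorta libraries. The first 2 of these DA libraries each pool 2 embryos, and DA replicate 4 has no column in the table. Littermate controls gave 7 DA and 6 aorta libraries. Most were PRDM6wt/f without Cre, control DA replicate 3 was PRDM6wt/wt, and 1 embryo was labelled Wnt1Cre;PRDM6wt/wt and gave control DA replicate 2 and control aorta replicate 3. Cre was absent from the other controls, so effects of Cre and of the deletion cannot be told apart in their comparison. Embryos carried animal numbers from 2 runs, the first with Prdm6-deficient DA replicates 1, 5 and 6, control DA replicates 2 and 3, Prdm6-deficient aorta replicates 3 and 4 and control aorta replicate 3. Of the animals, 6 controls and 4 deficient embryos gave both vessels, 2 of the latter pooled in DA replicate 2.

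An integrin is a pair of an alpha and a beta subunit, and the pair decides which matrix proteins it binds: collagens, laminins, or proteins with the RGD motif such as fibronectin. Inside the cell, talins and kindlins bind the beta tail and switch the receptor on, and ILK, PINCH and parvin, with vinculin, paxillin and FAK, carry force and signals to actin. In mice, the study states, constriction begins to close the DA minutes after birth, and intimal thickening follows over a longer time. Smooth muscle cells hold to their matrix through such receptors.

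Total expected counts per library ran from 16945227 to 22318867 in Prdm6-deficient DA and from 15163974 to 21037037 in control DA. In the aorta they ran from 18980857 to 21640742 in Prdm6-deficient and from 19309945 to 22610547 in control libraries. At these depths 3 counts, the floor for detection, correspond to 0.133 to 0.198 CPM (counts scaled to library size), a limit that covers counting error only. Levels are TMM-scaled CPM, and levels of different genes are compared only as CPM per kilobase of exon. Differences between groups are log2 fold changes, each with its SE. A gene is called at an edgeR adjusted p below 0.01 with a log2 fold change beyond 0.5 either way, in the fit of all libraries unless another is named. These are the study's thresholds between DA genotypes, and for DA against aorta it set other fold limits. Of the 39 genes, 35 had counts high enough to be tested among 16463 genes. Not tested were Fermt1, the kindlin of epithelia, Itgae and Itgax of leukocytes, and Itgb6 of epithelia, with at most 21, 10, 18 and 7 counts in any library. Prdm6 itself (ENSMUSG00000069378.13) was checked first: its level was 78.1, 70.8, 77.7, 78.5 and 58.6 CPM in the 5 Prdm6-deficient DA libraries and 84.9 to 128 CPM with a median of 104 in control DA. In the aorta it was 69.6, 70.0, 68.5, 81.2 and 61.9 CPM in Prdm6-deficient libraries and 95.6 to 135 CPM with a median of 109 in controls. All deficient libraries lay below all controls of their vessel, with RNA remaining, and counts from the floxed exons are not separated.

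Some libraries stood apart in markers of other cells. In control DA replicate 1 the sum of 7 cardiomyocyte markers, Tnnt2 the most abundant, was 1093 CPM against a median of 116 for its group. Control aorta replicate 4 had the highest melanocyte sum of the aorta libraries, 14.8 CPM, and a sum of 6 erythroid markers of 27516 CPM. Prdm6-deficient DA replicate 1 had an erythroid sum of 27636 CPM. Prdm6-deficient aorta replicate 3 had the highest autonomic neuron and Schwann cell sums of its group, 84.9 and 75.3 CPM. Its cardiomyocyte sum was the lowest there, 21.8 CPM. Without this library the 4 member calls between aorta genotypes were kept, where 1.93% of all genes were called. Prdm6-deficient aorta replicates 1 to 5 had T cell and thymus marker sums of 23.6, 13.6, 5.03, 3.12 and 3.90 CPM. Replicates 1 and 2 stood apart from the others, and leaving out either of these kept the 4 member calls between aorta genotypes. Of all genes, 1.94% were called there without replicate 1 and 2.001% without replicate 2, against 2.45% with all libraries. In an alternative chosen after seeing the data, control DA replicate 1 and control aorta replicate 4 were left out together. The number of members called was then 7 between genotypes in the DA, 4 between genotypes in the aorta, 9 between control vessels, 0 between deficient vessels and 5 for a difference of genotype differences, against 6, 4, 9, 0 and 6 with all libraries. Itgb3 was called in addition between DA genotypes and Parva between control vessels, while Itga11 was not called between control vessels nor Itga1 for the interaction. Of all genes, 5.37%, 2.26%, 5.196%, 0.320% and 2.86% were then called. Without the Cre-carrying control embryo the counts were 7, 4, 9, 0 and 6, and the shares of all genes 5.64%, 2.14%, 4.87%, 0.239% and 2.48%.

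Among the alpha subunits, Itga8 and Itga9 had the highest levels in all 4 groups, with Itga9 first in control DA and Itga8 first elsewhere. In control DA, Itga9 was first at 71.8 ± 18.2 CPM per kb and Itga8 second at 59.7 ± 11.2 (SD, n = 7), a distance within their spread. In control aorta, Itga8 was first at 104 ± 18.0 CPM per kb and Itga9 second at 43.0 ± 4.68 (SD, n = 6). Itga8 was also first in Prdm6-deficient DA, at 52.2 ± 3.46 against 32.2 ± 5.39 CPM per kb for Itga9, and in Prdm6-deficient aorta, at 48.0 ± 11.8 against 26.6 ± 2.83 (SD, n = 5 each). As a share of the summed alpha subunit levels per kb, Itga9 was 37.1% ± 5.57 in control DA and 20.9% ± 2.12 in Prdm6-deficient DA. Its share was 20.7% ± 1.56 in control aorta and 19.2% ± 2.27 in Prdm6-deficient aorta. Itga8 had 31.2% ± 3.78 and 34.2% ± 2.41 in control and Prdm6-deficient DA, and 49.4% ± 2.54 and 34.0% ± 4.62 in control and Prdm6-deficient aorta. Itga5, the classical fibronectin receptor subunit, came next in every group, at 23.5 CPM per kb in control DA and 18.98 in control aorta, and Itgav, which binds RGD proteins with several beta subunits, came after it.

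**Figure D1:**
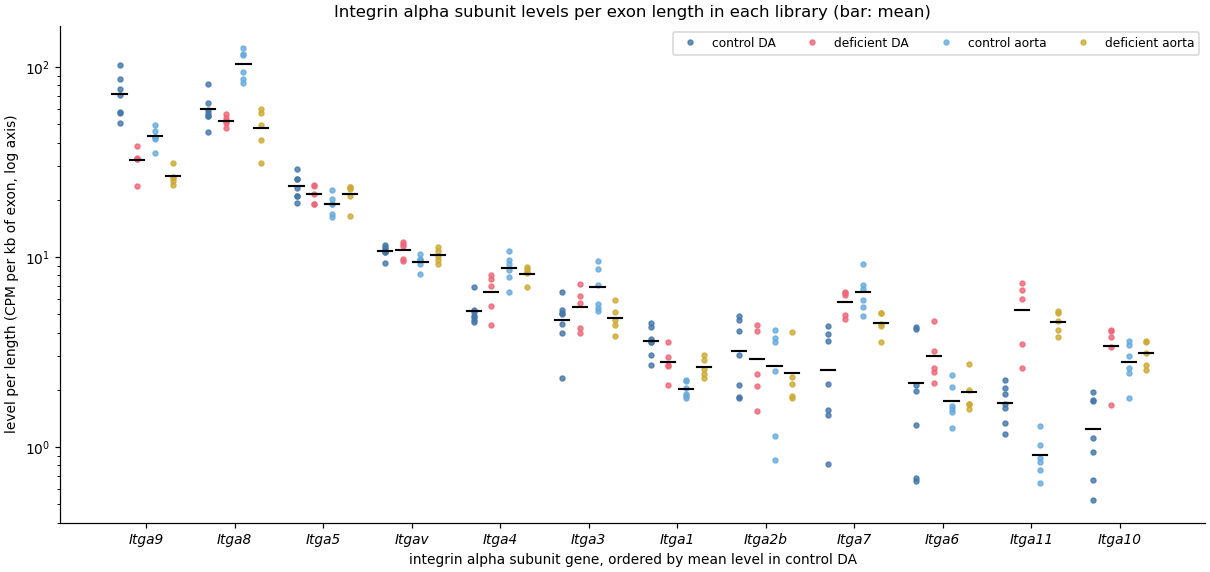
Level of the integrin alpha subunits in CPM per kilobase of exon, on a log axis, per library (points) with the group mean (bar), for the 12 subunits with a mean of at least 1 CPM per kb in some group, in control and Prdm6-deficient DA and aorta. Itga9 averages 71.8 CPM per kb in control DA and 32.2 in Prdm6-deficient DA, and Itga8 averages 104 in control aorta and 48.0 in Prdm6-deficient aorta.

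In the DA, loss of Prdm6 went with higher RNA for 3 alpha subunits, Itga7, Itga10 and Itga11, and lower RNA for Itga9, Lims2 and Vcl. These 6 of the 35 tested members were called, 17.1% of them, against 5.43% of all genes tested. By direction 3 were higher and 3 lower, where 2.61% of all genes were called higher and 2.82% lower. The genotypes did not overlap for 6 members (Itga7, Itga9, Itga11, Lims2, Vcl and Ptk2), as for 5.66% of all genes. Another 4, Itgb3, Itgb5, Parva and Ptk2, passed the p threshold with changes under the fold limit. The median log2 fold change of the 35 was -0.14, against 0.01 over all genes, and the median of its size was 0.27 against 0.24. Within the first run of animals alone 2 members were called, against 1.10% of all genes, and within the second 5, against 2.37%.

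In the aorta, Prdm6-deficient embryos had less RNA for Itga8, Itga9 and Itgb3 and more for Itga11. These are 4 of 35 members called, 11.4%, against 2.45% of all genes. Called lower were 3, against 0.826% of all genes, and called higher was 1, against 1.63%. The genotypes did not overlap for 8 members (Itga1, Itga8, Itga9, Itga11, Itgb3, Itgb5, Fermt2 and Fermt3), as for 6.95% of all genes. Fermt2, Itgb5, Lims1 and Ptk2 passed the p threshold with changes under the fold limit. The median size of the log2 fold change was 0.34 over the 35 members and 0.18 over all genes.

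Between the vessels of control embryos, the DA had more RNA than the aorta for Itga1, Itga9, Itga11, Lims2 and Fermt2, and less for Itga4, Itga7, Itga8 and Itga10. That makes 9 of 35 members called, 25.7%, against 5.35% of all genes. Called higher in the DA were 5, against 3.15% of all genes, and called lower 4, against 2.19%. Control DA and control aorta did not overlap for 7 members (Itga1, Itga7, Itga8, Itga9, Itgb1, Lims2 and Fermt2), as for 5.36% of all genes. The control libraries of this comparison also serve both genotype comparisons, so the 3 sets of values are not independent of each other.

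Between the vessels of Prdm6-deficient embryos, with 5 libraries each, edgeR called 0 of 35 members and 0.267% of all genes. Some of these embryos gave both vessels, and the animal was not fitted as a block here. At an unadjusted p below 0.05 stood 3 members, Itga4 with a log2 fold change of -0.33, Parvb with 0.45 and Pxn with -0.19, as did 10.05% of all genes, and DESeq2 also called 0 (all genes 0.851%), with 4 at an unadjusted p below 0.05 (all genes 11.1%). With the compared groups fitted alone, 7 members stood at that level in edgeR (all genes 11.6%). It was 1 without any 1 of Prdm6-deficient DA replicate 6 and Prdm6-deficient aorta replicates 1 and 2 (all genes 10.3%, 8.52% and 8.49%). The median size of the difference was 0.15 for the members and 0.18 for all genes, where it was 0.33 and 0.21 between control vessels. Whether the genotype difference itself differs between DA and aorta was tested as an interaction, called at an adjusted p below 0.01 with no fold limit. It was called for 6 of 35 members, Itga1, Itga7, Itga8, Parva, Lims2 and Fermt2, which is 17.1%, against 2.65% of all genes. The count of 6 fell to 3 without any 1 of Prdm6-deficient DA replicates 2, 6 and 7, Prdm6-deficient aorta replicate 4 and control aorta replicate 1 (all genes 2.28%, 2.25%, 2.31%, 2.17% and 2.36%), and to 0 without the 2 pooled libraries together, where 1.72% of all genes were called. Without the pools the log2 differences of these 6 were -0.77, 1.79, 0.91, -0.58, -1.14 and -0.63, against -0.76, 1.74, 0.92, -0.61, -1.18 and -0.63 with all libraries.

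**Figure D2:**
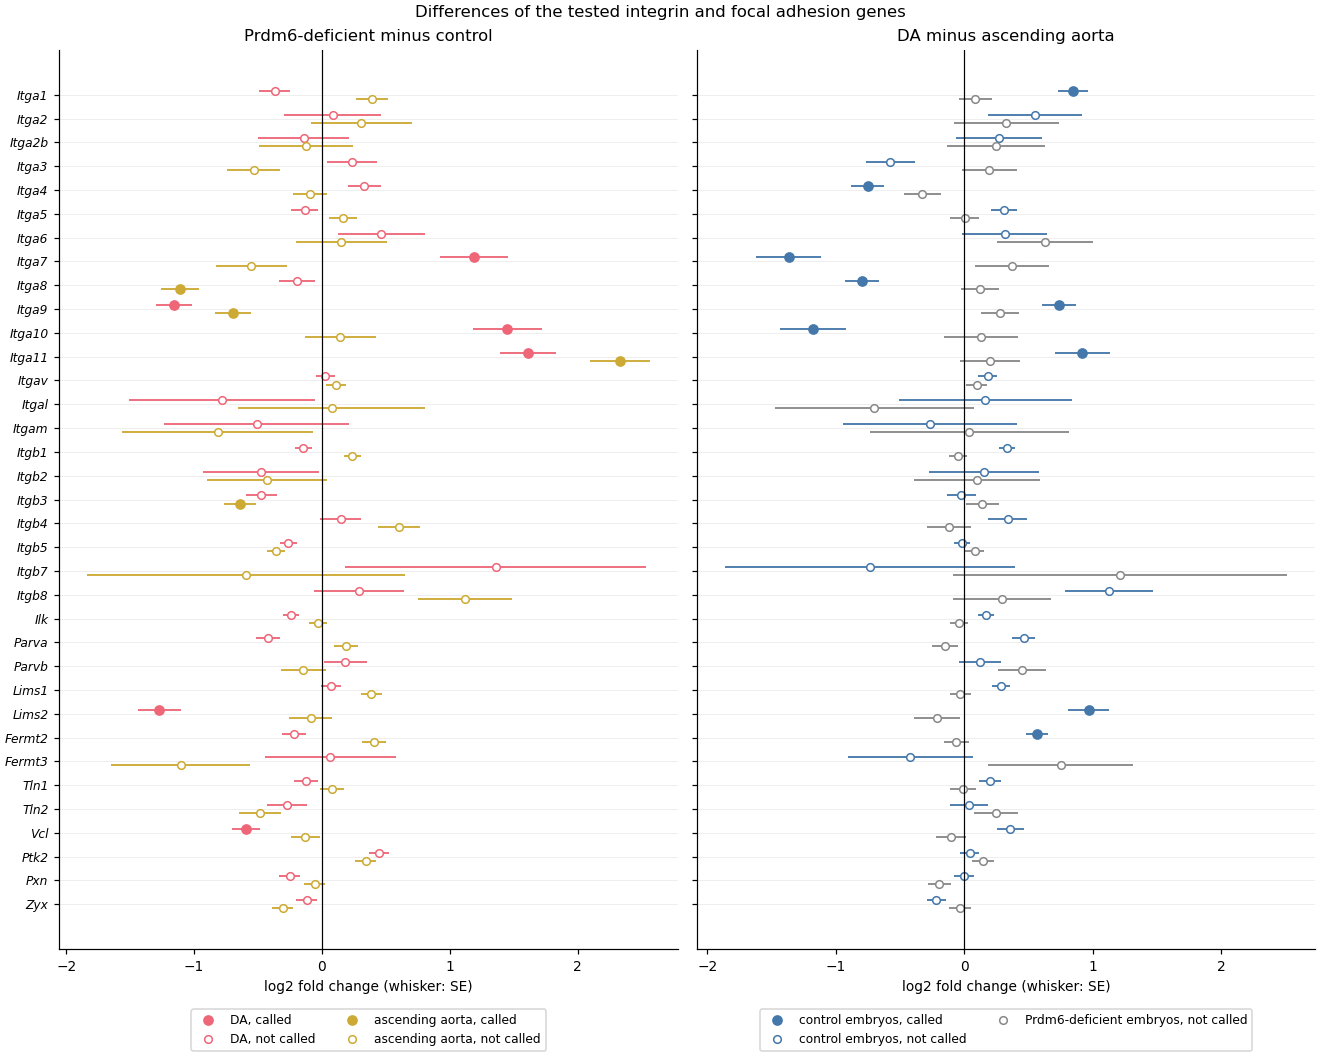
Log2 fold changes of the tested members with their SE, between genotypes in the DA and the aorta (left) and between vessels in control and Prdm6-deficient embryos (right); filled points are called by edgeR. Itga11 is the highest in both genotype comparisons, at 1.61 in the DA and 2.33 in the aorta, and Lims2 lowest in the DA, at -1.27.

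The collagen receptors are the alpha subunits Itga1, Itga2, Itga10 and Itga11, which all pair with beta1. Itga11, the receptor subunit for fibrillar collagen on fibroblasts and other mesenchymal cells (ENSMUSG00000032243.8, chr9:62677826-62783982, plus strand of mm10), had the largest change of the members called between genotypes, in both vessels. Its level was 31.0, 17.9, 37.4, 34.4 and 13.4 CPM in Prdm6-deficient DA replicates 1, 2, 5, 6 and 7, and 6.01 to 11.6 CPM with a median of 8.67 in control DA. Every deficient DA library was above every control, with replicates 2 and 7 the lowest of the 5. The level rose from 8.78 ± 1.96 CPM (SD, n = 7) to 26.8 ± 10.6 CPM (SD, n = 5), a log2 fold change of 1.61 (edgeR adjusted p = 6.1e-06, SE 0.22), or 3.05-fold. In Prdm6-deficient aorta the 5 libraries had 26.5, 23.6, 21.2, 26.2 and 19.4 CPM, against 3.33 to 6.62 CPM with a median of 4.37 in control aorta. The genotypes were far apart there too, with a log2 fold change of 2.33 (edgeR adjusted p = 1.4e-07, SE 0.23), or 5.03-fold. The DA and aorta changes were not called different from each other in the interaction test, -0.72 (edgeR adjusted p = 0.25, SE 0.32). By run of animals, the DA change was 1.96 in the first and 0.83 (edgeR adjusted p = 0.0778) in the second, which holds replicates 2 and 7, and the second alone gave no call; the aorta change in the second run was 2.30. Control DA had more Itga11 RNA than control aorta, by 0.92 (edgeR adjusted p = 0.0043, SE 0.22), with 6 of the 7 DA libraries above the aorta maximum of 6.62 CPM. That call was lost without any 1 of control DA replicates 2 and 5 and control aorta replicates 1, 2, 3 and 4 (values from 0.84 to 0.91, edgeR adjusted p from 0.0102 to 0.015), without the Cre-carrying embryo (0.82, edgeR adjusted p = 0.0272), and with the animal as a block (1.01, edgeR adjusted p = 0.0208). It was also lost within the second run (0.89, edgeR adjusted p = 0.0108), without control DA replicate 1 and control aorta replicate 4 together (0.88, edgeR adjusted p = 0.0182) and when the control libraries were fitted alone (0.92, edgeR adjusted p = 0.0143).

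Itga10, a collagen receptor subunit best known from cartilage (ENSMUSG00000090210.7, chr3:96645584-96664519, plus strand), had 8.66, 17.4, 19.7, 21.3 and 21.1 CPM in Prdm6-deficient DA, against 2.72 to 10.1 CPM with a median of 5.80 in control DA. Replicates 2, 5, 6 and 7 lay above all controls, and replicate 1, a pool, lay among them. The log2 fold change was 1.45 (edgeR adjusted p = 4.1e-04, SE 0.27), with 5 of 5 deficient libraries above the control median. It was 1.36 (edgeR adjusted p = 0.257) within the first run and 1.57 within the second. Aorta libraries had 18.6, 14.1, 13.2, 16.1 and 18.7 CPM when Prdm6-deficient and 9.35 to 18.6 CPM with a median of 14.6 when control, overlapping, with a log2 fold change of 0.14 (edgeR adjusted p = 0.94, SE 0.28). The interaction of Itga10 was not called, though it passed at an edgeR adjusted p below 0.05. Control DA was lower than control aorta, at -1.18 (edgeR adjusted p = 0.0023, SE 0.26), with overlap between the groups. The vessel call was lost with the animal as a block (-1.09, edgeR adjusted p = 0.0233) and when the control libraries were fitted alone (-1.18, edgeR adjusted p = 0.0117). Itga10 shares exonic bases on its own strand with a predicted gene, Gm42957, so part of its count is uncertain. Itga1, a receptor subunit for basement membrane collagen on smooth muscle and endothelium (ENSMUSG00000042284.10, chr13:114953096-115101964, minus strand), had 49.9 to 83.2 CPM with a median of 66.7 in control DA and 55.3, 50.5, 66.2, 49.4 and 39.5 CPM in Prdm6-deficient DA. In control aorta it had 33.8 to 42.0 CPM with a median of 36.6, and in Prdm6-deficient aorta 53.1, 42.9, 45.3, 47.6 and 56.8 CPM. Levels overlapped between genotypes in the DA and did not in the aorta, where every deficient library was above every control. Control DA exceeded control aorta by 0.85 (edgeR adjusted p = 7.8e-06, SE 0.12) with no overlap, while the genotype differences, -0.37 (edgeR adjusted p = 0.045, SE 0.12) in the DA and 0.39 (edgeR adjusted p = 0.074, SE 0.13) in the aorta, were not called. These last differed from each other by -0.76 (edgeR adjusted p = 0.0076, SE 0.17), a call lost without any 1 of Prdm6-deficient DA replicates 1, 2, 6 and 7, Prdm6-deficient aorta replicates 1, 4 and 5, control DA replicates 1, 3, 5 and 7 and control aorta replicates 1, 2, 4 and 6 (values from -0.78 to -0.67, edgeR adjusted p from 0.0105 to 0.0216). Itga2, the main collagen receptor subunit of platelets and epithelia, averaged 4.68 CPM in control DA, 4.98 in Prdm6-deficient DA, 3.198 in control aorta and 3.96 in Prdm6-deficient aorta and was not called in any comparison.

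The laminin receptor subunits are Itga3, Itga6 and Itga7, of which Itga7 is the main laminin receptor of muscle cells (ENSMUSG00000025348.9, chr10:128933818-128958282, plus strand). Itga7 had 38.0, 50.9, 40.1, 52.5 and 53.2 CPM in Prdm6-deficient DA and 6.60 to 35.0 CPM with a median of 17.3 in control DA. Every deficient library was above every control, and the controls were widely spread. The log2 fold change was 1.19 (edgeR adjusted p = 0.0028, SE 0.27), from 20.7 ± 11.2 CPM (SD, n = 7) to 46.9 ± 7.30 CPM (SD, n = 5). It was 1.08 (edgeR adjusted p = 0.121) and 1.34 (edgeR adjusted p = 0.0544) within the runs, 1.24 (edgeR adjusted p = 0.0125) without the 2 pools and 1.18 (edgeR adjusted p = 0.0269) when the DA libraries were fitted alone, none of them called. Prdm6-deficient aorta had 40.9, 34.9, 28.9, 35.7 and 41.1 CPM and control aorta 39.7 to 74.7 CPM with a median of 51.3. These groups overlapped, and the log2 fold change of -0.55 (edgeR adjusted p = 0.38, SE 0.28) was not called. Control DA lay below control aorta with no overlap, at -1.37 (edgeR adjusted p = 3.9e-04, SE 0.26). The genotype difference in the DA exceeded that in the aorta by 1.74 (edgeR adjusted p = 0.0053, SE 0.38), a call lost without any 1 of Prdm6-deficient DA replicates 2, 6 and 7, Prdm6-deficient aorta replicates 2, 3 and 4 and control aorta replicates 1 and 5 (values from 1.62 to 1.73, edgeR adjusted p from 0.0101 to 0.0135). Itga3 averaged 26.6 CPM in control DA, 31.2 in Prdm6-deficient DA, 39.5 in control aorta and 27.3 in Prdm6-deficient aorta, and Itga6 averaged 19.6 CPM in control DA, 27.1 in Prdm6-deficient DA, 15.8 in control aorta and 17.5 in Prdm6-deficient aorta; neither was called in any comparison.

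Itga8, an RGD-binding subunit of smooth muscle and kidney mesenchyme whose ligands include nephronectin and fibronectin (ENSMUSG00000026768.10, chr2:12106632-12301922, minus strand), had 608 at the lowest, 775 at the median and 923 at the highest CPM in control aorta. Prdm6-deficient aorta had 443, 305, 231, 367 and 422 CPM in replicates 1 to 5. The groups did not overlap, and replicate 3 was the lowest. The level fell from 763 ± 132 CPM (SD, n = 6) to 353 ± 86.9 CPM (SD, n = 5), a log2 fold change of -1.11 (edgeR adjusted p = 1.0e-05, SE 0.15), and it was -1.03 within the second run of animals. In the DA, control libraries had 337 to 601 CPM with a median of 421 and Prdm6-deficient libraries 398, 374, 419, 351 and 381 CPM. All 5 deficient values lay inside the control range, with a log2 fold change of -0.19 (edgeR adjusted p = 0.45, SE 0.14). Control DA was lower than control aorta with no overlap, at -0.79 (edgeR adjusted p = 9.2e-05, SE 0.13), and Prdm6-deficient DA against Prdm6-deficient aorta gave 0.12 (edgeR adjusted p = 0.88, SE 0.15). The genotype differences differed by 0.92 (edgeR adjusted p = 0.0046, SE 0.20); this was not called without any 1 of Prdm6-deficient DA replicate 5, Prdm6-deficient aorta replicate 2 and control aorta replicate 2 (values from 0.85 to 0.88, edgeR adjusted p from 0.0103 to 0.0131). An antisense gene, E030013I19Rik, overlaps the exons of Itga8, and since the use of the strand in counting is not stated, their reads cannot be told apart where they overlap. E030013I19Rik itself had a log2 fold change of -1.13 (edgeR adjusted p = 0.0038) between genotypes in the aorta, at 28.4 CPM in control aorta. Exons of Itga4 overlap Cerkl in antisense, those of Lims2 overlap Gpr17, and those of Itga7 overlap Mettl7b by 9 bases, while Itga1 shares bases with Gm49395 on its own strand.

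Itga9, which binds tenascin-C, VCAM1 and the extra domain A of fibronectin (ENSMUSG00000039115.13, chr9:118606690-118901003, plus strand), was lower without Prdm6 in both vessels. Control DA had 392 to 784 CPM with a median of 551, and Prdm6-deficient DA 253, 182, 297, 255 and 252 CPM. Every deficient library lay below every control. The level fell from 552 ± 139.9 CPM (SD, n = 7) to 248 ± 41.5 CPM (SD, n = 5), a log2 fold change of -1.16 (edgeR adjusted p = 1.3e-06, SE 0.14). The first and second run of animals gave -1.20 and -1.28, called in both. In the aorta, controls had 272 to 380.1 CPM with a median of 329 and Prdm6-deficient libraries 201, 203, 194, 184 and 241 CPM, again with no overlap. The log2 fold change there was -0.70 (edgeR adjusted p = 0.0023, SE 0.14); without Prdm6-deficient aorta replicate 4 it was -0.66 (edgeR adjusted p = 0.0101) and within the second run -0.67 (edgeR adjusted p = 0.0152), not called. Control DA exceeded control aorta with no overlap, by 0.74 (edgeR adjusted p = 2.0e-04, SE 0.13). The interaction of -0.46 (edgeR adjusted p = 0.22, SE 0.20) was not called.

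Itga4, which binds VCAM1 and fibronectin and is known from leukocytes and neural crest cells (ENSMUSG00000027009.18, chr2:79255426-79333123, plus strand), had 63.2 to 97.7 CPM with a median of 68.6 in control DA and 91.2 to 149 CPM with a median of 124 in control aorta. Control DA replicate 6 was the only DA control inside the aorta range. The DA was lower, at -0.75 (edgeR adjusted p = 1.0e-04, SE 0.13). Prdm6-deficient libraries had 107, 61.2, 98.2, 76.8 and 112 CPM in the DA and 123, 120.1, 97.6, 114 and 116 in the aorta, overlapping the controls in both. Genotype differences were 0.33 (edgeR adjusted p = 0.11, SE 0.13) in the DA and -0.09 (edgeR adjusted p = 0.91, SE 0.14) in the aorta, neither called. Itga5 averaged 116 CPM in control DA, 106 in Prdm6-deficient DA, 93.7 in control aorta and 105 in Prdm6-deficient aorta, and Itgav averaged 115 CPM in control DA, 117 in Prdm6-deficient DA, 101 in control aorta and 109.6 in Prdm6-deficient aorta. Neither was called in any comparison. Itga2b of platelets averaged 17.5 CPM in control DA, 15.8 in Prdm6-deficient DA, 14.5 in control aorta and 13.3 in Prdm6-deficient aorta, and the leukocyte subunits Itgal and Itgam averaged 2.09 and 1.71 CPM in control DA; none of these 3 was called. In all, 15 of 17 alpha subunits were tested, and 4 were called between genotypes in the DA, 3 between genotypes in the aorta and 7 between control vessels, where 5.43%, 2.45% and 5.35% of all genes were.

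Among the 8 beta subunits, Itgb1, the partner of most alpha subunits, had the highest level per length in all groups (ENSMUSG00000025809.15, chr8:128685654-128733200, plus strand). It stood at 421 ± 33.2 CPM per kb in control DA, followed by Itgb5 at 114 ± 9.06 and Itgb3 at 26.6 ± 4.43 (SD, n = 7). Itgb1 had 1556 to 1956 CPM with a median of 1677 in control DA and 1624, 1470.1, 1589, 1546 and 1551 CPM in Prdm6-deficient DA. The aorta had 1246 to 1529 CPM with a median of 1376 in controls and 1693, 1644, 1429, 1609 and 1677 CPM in Prdm6-deficient libraries. Genotypes overlapped in both vessels, while all control DA libraries were above all control aorta libraries. That vessel difference, 0.33 (edgeR adjusted p = 3.7e-04, SE 0.06), was below the fold limit, as were the genotype differences of -0.14 (edgeR adjusted p = 0.17, SE 0.06) in the DA and 0.24 (edgeR adjusted p = 0.034, SE 0.07) in the aorta. The interaction of Itgb1, -0.38 (edgeR adjusted p = 0.013, SE 0.09), was not called with all libraries, while DESeq2 called it, as did edgeR without any 1 of Prdm6-deficient aorta replicate 3, control DA replicate 2 and control aorta replicate 5. Itgb3, which pairs with alpha v and alpha IIb and binds RGD proteins (ENSMUSG00000020689.4, chr11:104608000-104670476, plus strand), had 142 to 178 CPM with a median of 159.7 in control aorta and 100.2, 102, 81.0, 126 and 102 CPM in Prdm6-deficient aorta. No deficient aorta library reached the lowest control. It fell from 159.7 ± 16.9 CPM (SD, n = 6) to 102 ± 16.0 CPM (SD, n = 5), a log2 fold change of -0.64 (edgeR adjusted p = 0.0014, SE 0.12), and was -0.67 within the second run. Platelet and megakaryocyte markers summed to 30.3 to 39.7 CPM in Prdm6-deficient and 39.03 to 64.9 in control aorta, with Pf4 called lower, and their part in the Itgb3 difference was not tested. In the DA, controls had 118 to 191 CPM with a median of 167 and Prdm6-deficient libraries 123, 100.5, 142, 96.3 and 103 CPM, with overlap. The log2 fold change there was -0.47 (edgeR adjusted p = 0.0085, SE 0.12), below the fold limit (beyond it within the second run and without some libraries), and the interaction was 0.17 (edgeR adjusted p = 0.74, SE 0.17).

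Itgb5, a partner of alpha v, averaged 403 ± 32.2 CPM in control DA, 336 ± 20.0 in Prdm6-deficient DA, 408 ± 20.6 in control aorta and 318 ± 29.1 in Prdm6-deficient aorta (mean ± SD, n = 7, 5, 6 and 5). Its genotype differences were -0.26 (edgeR adjusted p = 0.0093, SE 0.07) in the DA and -0.36 (edgeR adjusted p = 0.0014, SE 0.07) in the aorta, below the fold limit, the latter with no overlap between genotypes. Itgb8, an alpha v partner that activates latent TGF-beta, averaged 10.1 CPM in control DA, 12.3 in Prdm6-deficient DA, 4.62 in control aorta and 10.1 in Prdm6-deficient aorta, and Itgb4, the alpha 6 partner of hemidesmosomes, averaged 23.9 CPM in control DA, 26.4 in Prdm6-deficient DA, 18.9 in control aorta and 28.7 in Prdm6-deficient aorta. Itgb2 and Itgb7 of leukocytes averaged 4.18 and 0.384 CPM in control DA. With all libraries edgeR called none of these 4; Itgb8 differed by 1.12 (edgeR adjusted p = 0.085, SE 0.37) between aorta genotypes and 1.13 (edgeR adjusted p = 0.031, SE 0.35) between control vessels. The former was called when the aorta libraries were fitted alone, and the latter by DESeq2 and without control DA replicate 6. Itgb4 differed by 0.60 (edgeR adjusted p = 0.029, SE 0.17) between aorta genotypes, called without control aorta replicate 5. Of the 7 beta subunits tested, edgeR with all libraries called 1, Itgb3 in the aorta, where 2.45% of all genes were called.

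**Figure D3:**
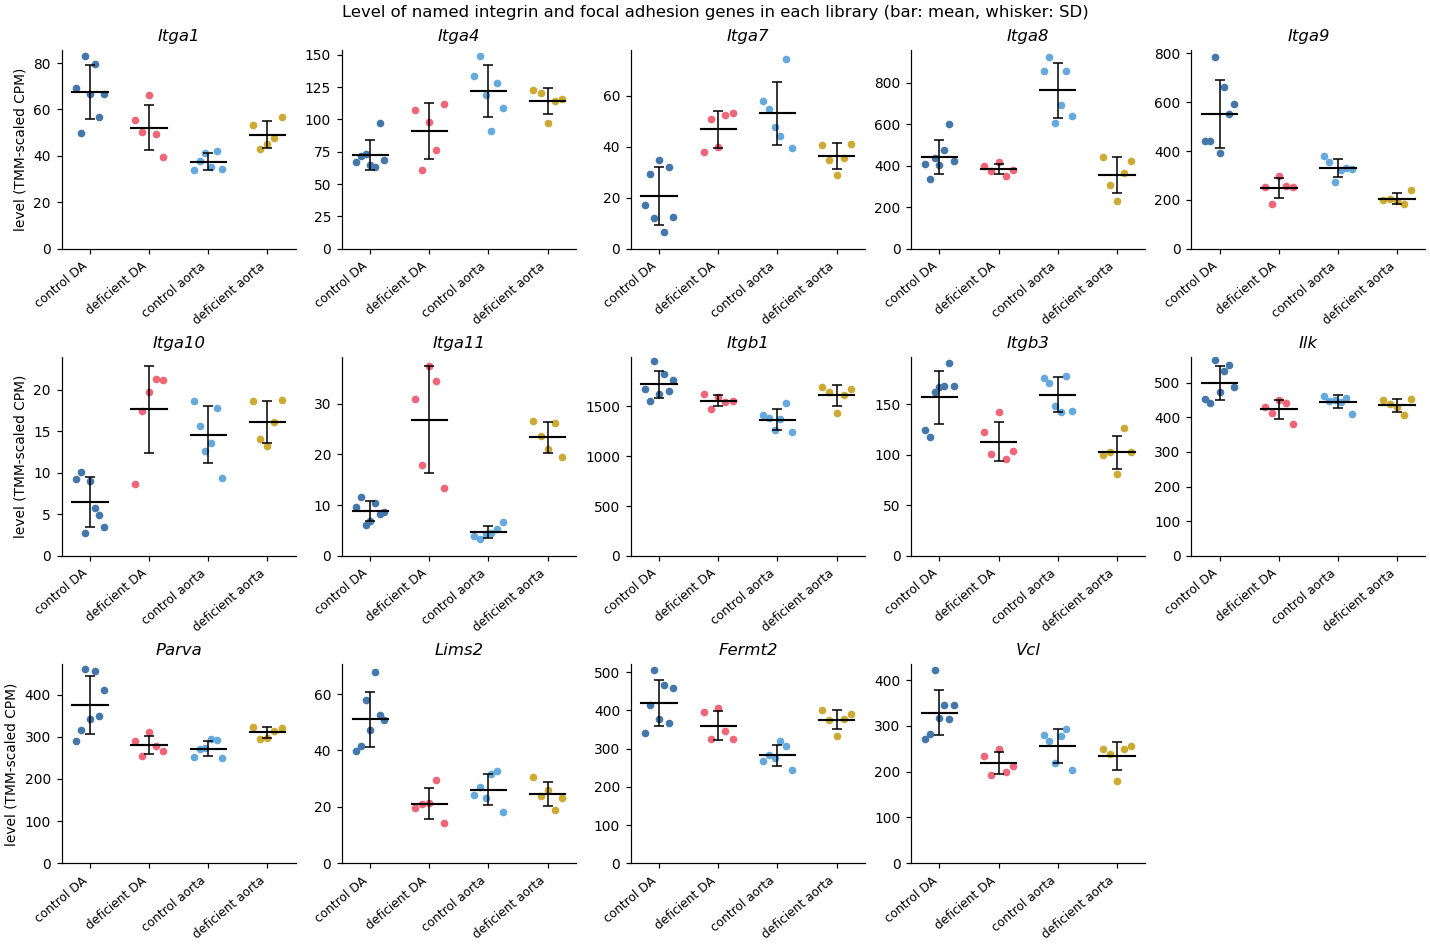
CPM of 14 members in every library (points) with the group mean (bar) and SD (whisker), for control and Prdm6-deficient DA and aorta. Itga9 runs from 392 to 784 CPM in control DA and from 182 to 297 in Prdm6-deficient DA, and Lims2 from 39.6 to 67.8 and from 14.3 to 29.5.

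ILK, a pseudokinase, binds a PINCH protein (Lims1 or Lims2) and a parvin (Parva or Parvb), and the complex ties the beta1 tail to actin. Lims2, which encodes PINCH2 (ENSMUSG00000024395.9, chr18:31922290-31958619, plus strand), had 39.6 at the lowest, 50.7 at the median and 67.8 at the highest CPM in control DA. Prdm6-deficient DA had 19.6, 20.8, 21.5, 29.5 and 14.3 CPM. The groups did not overlap. Lims2 fell from 51.1 ± 9.70 CPM (SD, n = 7) to 21.2 ± 5.45 CPM (SD, n = 5), a log2 fold change of -1.27 (edgeR adjusted p = 5.6e-06, SE 0.17). Within the first run it was -1.08 (edgeR adjusted p = 0.0355), not called, and within the second -1.55. Control aorta had 18.2 to 32.5 CPM with a median of 25.5 and Prdm6-deficient aorta 30.6, 24.0, 26.0, 19.03 and 23.1 CPM, which overlap, with a log2 fold change of -0.09 (edgeR adjusted p = 0.93, SE 0.17). Control DA exceeded control aorta with no overlap, by 0.97 (edgeR adjusted p = 8.0e-05, SE 0.16). The DA and aorta genotype differences differed by -1.18 (edgeR adjusted p = 0.0022, SE 0.24), a call kept without any single library but lost without the 2 pools (-1.14, edgeR adjusted p = 0.0147). Lims1, PINCH1, averaged 129 CPM in control DA, 136 in Prdm6-deficient DA, 106 in control aorta and 139 in Prdm6-deficient aorta; its log2 fold changes were 0.39 (edgeR adjusted p = 0.0024, SE 0.08) in the aorta and 0.29 (edgeR adjusted p = 0.0089, SE 0.07) between control vessels, both under the fold limit.

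The study lists Ilk (ENSMUSG00000030890.16, chr7:105736592-105742925, plus strand) among genes tied to DA closure whose level changed with Prdm6 loss. It had 441 to 564 CPM with a median of 486 in control DA and 429, 413, 449, 442 and 381 CPM in Prdm6-deficient DA. Control aorta had 409 to 462 CPM with a median of 448 and Prdm6-deficient aorta 449, 437, 429.7, 406 and 453 CPM. Genotypes overlapped in both vessels. Log2 fold changes of -0.24 (edgeR adjusted p = 0.014, SE 0.07) in the DA and -0.03 (edgeR adjusted p = 0.95, SE 0.07) in the aorta were not called. The DA difference passed the looser setting of an edgeR adjusted p below 0.05 with no fold limit. Much of Ilk's exonic length lies antisense to Taf10 (log2 fold change in the DA -0.07, edgeR adjusted p = 0.8), and their reads cannot be told apart there without the strand. Parva, alpha-parvin (ENSMUSG00000030770.15, chr7:112427505-112591692, plus strand), had 291 to 461 CPM with a median of 350.2 in control DA and 290.1, 254, 311, 278 and 267 CPM in Prdm6-deficient DA. In the aorta it had 249.98 to 294 CPM with a median of 272 in controls and 323, 294, 298, 315 and 322 CPM in Prdm6-deficient libraries. DA genotypes overlapped, and in the aorta deficient replicate 2 lay just under the highest control. Differences of -0.42 (edgeR adjusted p = 0.0028, SE 0.09) between DA genotypes and 0.46 (edgeR adjusted p = 5.6e-04, SE 0.09) between control vessels passed the p threshold below the fold limit (the latter beyond it without control DA replicate 1 or the Cre-carrying embryo), and that in the aorta was 0.19 (edgeR adjusted p = 0.4, SE 0.10). The interaction of -0.61 (edgeR adjusted p = 0.0051, SE 0.13) was called, but not without any 1 of Prdm6-deficient DA replicates 2, 6 and 7, Prdm6-deficient aorta replicates 1, 4 and 5 and control aorta replicates 1 and 6 (values from -0.61 to -0.58, edgeR adjusted p from 0.0104 to 0.0144). Parvb, beta-parvin, averaged 23.03 CPM in control DA, 26.2 in Prdm6-deficient DA, 21.2 in control aorta and 19.1 in Prdm6-deficient aorta and was not called.

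Fermt2, kindlin-2, the kindlin of most tissues (ENSMUSG00000037712.16, chr14:45458795-45530118, minus strand), had 340.3 to 507 CPM with a median of 414 in control DA and 244 to 319 CPM with a median of 279 in control aorta. The vessels did not overlap, and control DA exceeded control aorta by 0.57 (edgeR adjusted p = 3.3e-05, SE 0.09). Prdm6-deficient libraries had 395, 326, 406, 347 and 326 CPM in the DA and 400.5, 376, 334, 377 and 391 in the aorta. In the DA they overlapped the controls, and in the aorta all 5 lay above all 6 controls. The aorta difference, 0.41 (edgeR adjusted p = 0.0069, SE 0.09), was under the fold limit, and that in the DA was -0.22 (edgeR adjusted p = 0.13, SE 0.09). Their difference of -0.63 (edgeR adjusted p = 0.003, SE 0.13) was called, and stayed so with each single library left out. It was not called without the 2 pools (-0.63, edgeR adjusted p = 0.012) nor with the replicate number as a block (-0.59, edgeR adjusted p = 0.0138). Fermt3, kindlin-3 of blood cells, averaged 8.25 CPM in control DA, 8.64 in Prdm6-deficient DA, 11.03 in control aorta and 5.13 in Prdm6-deficient aorta; no deficient aorta library reached the lowest control, but the log2 fold change of -1.10 (edgeR adjusted p = 0.37, SE 0.55) was called only when the aorta libraries were fitted alone. Tln1, the talin that links beta tails to actin in most cells, averaged 339 CPM in control DA, 311 in Prdm6-deficient DA, 295 in control aorta and 312 in Prdm6-deficient aorta, and Tln2, its relative in muscle and brain, averaged 32.2 CPM in control DA, 26.6 in Prdm6-deficient DA, 31.4 in control aorta and 22.4 in Prdm6-deficient aorta. Neither talin was called.

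Vcl, vinculin, binds talin and actin and strengthens adhesions under force (ENSMUSG00000021823.10, chr14:20929398-21033676, plus strand). It had 272 at the lowest, 318 at the median and 422 at the highest CPM in control DA and 235, 193, 249.7, 199 and 213 CPM in Prdm6-deficient DA. Every deficient DA library was below every control. Vcl fell from 329 ± 49.8 CPM (SD, n = 7) to 218 ± 24.0 CPM (SD, n = 5), a log2 fold change of -0.59 (edgeR adjusted p = 4.4e-04, SE 0.11). It was -0.63 (edgeR adjusted p = 0.115) within the first run, not called, and -0.65 within the second. In the aorta, controls had 203 to 294 CPM with a median of 272 and Prdm6-deficient libraries 249, 238, 180.3, 249.8 and 256 CPM, overlapping, with a log2 fold change of -0.13 (edgeR adjusted p = 0.76, SE 0.11). The interaction was -0.46 (edgeR adjusted p = 0.097, SE 0.16), and control DA against control aorta gave 0.36 (edgeR adjusted p = 0.023, SE 0.10); neither was called. Vcl overlaps Ap3m1 in antisense (log2 fold change in the DA -0.02, edgeR adjusted p = 0.95). Ptk2, the focal adhesion kinase FAK, averaged 88.9 ± 7.45 CPM in control DA, 121 ± 11.6 in Prdm6-deficient DA, 86.4 ± 4.14 in control aorta and 109.6 ± 13.1 in Prdm6-deficient aorta (mean ± SD, n = 7, 5, 6 and 5). Its differences of 0.45 (edgeR adjusted p = 2.0e-04, SE 0.08) in the DA, where the genotypes did not overlap, and 0.34 (edgeR adjusted p = 0.00951, SE 0.08) in the aorta were under the fold limit. Pxn, the adaptor paxillin, averaged 102 CPM in control DA, 85.6 in Prdm6-deficient DA, 102 in control aorta and 97.8 in Prdm6-deficient aorta, and Zyx, zyxin of strained actin fibres, averaged 426 CPM in control DA, 392 in Prdm6-deficient DA, 495 in control aorta and 400.1 in Prdm6-deficient aorta; neither was called in any comparison.

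Promoter windows of 300 bases, 250 before to 50 after the start, were matched in RefSeq (GRCm38.p6, the assembly of mm10) for 27 of the 39 members, with 32 windows. Motifs were searched on both strands: the CArG box, known to be bound by SRF in smooth muscle genes; GGAATG, known to be bound by TEAD factors; and TGANTCA, known to be bound by AP-1. A CArG box was in the windows of 3 members, Fermt2, Itgb6 and Vcl, and in 1.63% of all 32851 windows. GGAATG was in those of Itga10, Itgb1 and Vcl, and in 14.7% of all windows, and TGANTCA in those of Itga3, Itga9, Itgax and Zyx, and in 7.81% of all. Shown are the stretches with the CArG boxes of Vcl and Fermt2, a member called between DA genotypes and one called between control vessels. In Vcl, chr14:20929148-20929260 on the plus strand, capitals mark the CArG box, 227 to 218 bases before the start, and GGAATG, from 143 bases before it. In Fermt2, chr14:45530180-45530299 on the minus strand, capitals mark the CArG box, 204 to 195 bases before the RefSeq start. That start differs from the GENCODE start of Fermt2 given above. A match is a description of letters and not of binding.
Vcl: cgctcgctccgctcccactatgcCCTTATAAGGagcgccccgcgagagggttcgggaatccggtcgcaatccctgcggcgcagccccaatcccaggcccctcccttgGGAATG
Fermt2: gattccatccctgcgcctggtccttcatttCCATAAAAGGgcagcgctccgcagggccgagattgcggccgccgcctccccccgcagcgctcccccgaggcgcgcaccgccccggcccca

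Other proteins of the focal adhesion plaque were given by a list of 51 genes, all tested. In the DA 14 were called between genotypes, 5 higher and 9 lower, and in the aorta 5, all higher, where 5.43% and 2.45% of all genes were called. Control vessels differed in 9, 6 higher and 3 lower in the DA, deficient vessels in 0 by edgeR and the interaction in 8, 2 higher and 6 lower, against 5.35%, 0.267% and 2.65% of all genes. For deficient vessels, 12 stood at an unadjusted p below 0.05, and DESeq2 called 0, with 13 at that level, where the shares of all genes at that level were 10.05% by edgeR and 11.1% by DESeq2. The 4 with the largest rise in the DA were Tns3, a tensin that ties beta tails to actin, with a log2 fold change of 1.10 (edgeR adjusted p = 1.7e-07, SE 0.12), Kank4, of a talin-binding family, Bcar3, an adaptor bound to p130Cas, and Sorbs2. Kank4 rose by 1.08 (edgeR adjusted p = 6.2e-04, SE 0.21), Bcar3 by 0.99 (edgeR adjusted p = 0.0077, SE 0.25) and Sorbs2 by 0.66 (edgeR adjusted p = 0.001, SE 0.13). In the aorta, Tns3 rose by 1.04 (edgeR adjusted p = 1.4e-06, SE 0.12), Kank4 by 1.25 (edgeR adjusted p = 3.8e-04, SE 0.22) and Sorbs2 by 1.07 (edgeR adjusted p = 6.8e-06, SE 0.14). Within the runs, Bcar3 was 0.72 and 1.26, Kank4 1.47 and 0.58, and Sorbs2 0.82 and 0.50, with Kank4 called in the first alone and the others in neither. The Bcar3 call was also lost without any 1 of Prdm6-deficient DA replicates 2, 6 and 7 and control DA replicates 1, 3, 5 and 7 (lowest value 0.84, edgeR adjusted p up to 0.0355). Other losses of it were without the 2 pools (1.14, edgeR adjusted p = 0.012), without control DA replicate 1 and control aorta replicate 4 together (0.89, edgeR adjusted p = 0.0202) and when the DA libraries were fitted alone (0.98, edgeR adjusted p = 0.0485). Decreases in the DA included those of Tes, a zyxin-binding LIM protein, Synm, an intermediate filament protein that binds vinculin, Csrp1, a smooth muscle LIM protein, and Lpp, a LIM protein related to zyxin. Their log2 fold changes were -1.75 (edgeR adjusted p = 1.9e-06, SE 0.22) for Tes, -1.67 (edgeR adjusted p = 2.5e-04, SE 0.30) for Synm, -0.88 (edgeR adjusted p = 5.9e-07, SE 0.10) for Csrp1 and -0.80 (edgeR adjusted p = 2.2e-05, SE 0.12) for Lpp. Each was higher in the DA than in the aorta of controls, by 1.71, 1.84, 0.82 and 0.82, and none was called between genotypes in the aorta. Their interactions, -2.52, -1.83, -0.71 and -0.83, had edgeR adjusted p of 6.2e-06, 0.0066, 0.0021 and 0.0022. For the plaque genes named here, only the differences between DA genotypes were followed through the alternatives. Within the first run the calls of Csrp1 (-0.71) and Lpp (-0.68) were lost, and that of Synm in both (-1.67 and -1.59).

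Matrix ligands of integrins were a list of 27 genes, of which 26 were tested and Spp1 was not. Between DA genotypes 8 were called, 3 higher and 5 lower, between aorta genotypes 2, both higher, and between control vessels 6, 5 higher and 1 lower in the DA, against 5.43%, 2.45% and 5.35% of all genes. Deficient vessels differed in 0 by edgeR and 2 by DESeq2, with 8 at an unadjusted p below 0.05 by each. Of all genes, edgeR called 0.267% and DESeq2 0.851% there, with 10.05% and 11.1% at that unadjusted level. The interaction was called for 5 ligands, all lower, against 2.65% of all genes. Postn, periostin, a ligand of alpha v integrins, averaged 1195 CPM in control DA, 3104 in Prdm6-deficient DA, 2101 in control aorta and 4865 in Prdm6-deficient aorta, and rose by 1.38 (edgeR adjusted p = 1.4e-06, SE 0.17) in the DA and 1.21 (edgeR adjusted p = 3.4e-05, SE 0.17) in the aorta. Col3a1, a fibrillar collagen, and Lamb1, a laminin chain, rose in the DA by 0.73 (edgeR adjusted p = 0.0034, SE 0.17) and 0.69 (edgeR adjusted p = 7.8e-04, SE 0.14). The Col3a1 call was lost without any 1 of Prdm6-deficient DA replicates 1, 2 and 7 (values from 0.69 to 0.70, edgeR adjusted p from 0.0112 to 0.0121); within the runs Col3a1 was 0.57 and 0.88 and Lamb1 0.62 and 0.60, none called. Col3a1 was not called without the 2 pools (0.64, edgeR adjusted p = 0.0503), and neither was called when the DA libraries were fitted alone (0.72, edgeR adjusted p = 0.0337 for Col3a1 and 0.69, edgeR adjusted p = 0.0137 for Lamb1). Thbs1, thrombospondin 1, averaged 550.2 CPM in control DA, 110.4 in Prdm6-deficient DA, 97.2 in control aorta and 110.2 in Prdm6-deficient aorta, with log2 fold changes of -2.32 (edgeR adjusted p = 1.1e-08, SE 0.21) between DA genotypes, 0.18 (edgeR adjusted p = 0.84, SE 0.20) between aorta genotypes and 2.50 (edgeR adjusted p = 1.5e-09, SE 0.20) between control vessels. Fn1, fibronectin, averaged 3142 CPM in control DA, 1814 in Prdm6-deficient DA, 1531 in control aorta and 1691 in Prdm6-deficient aorta, and fell in the DA by a log2 fold change of -0.79 (edgeR adjusted p = 2.7e-04, SE 0.14), with an interaction of -0.94 (edgeR adjusted p = 0.0042, SE 0.20). Npnt, nephronectin, the ligand of alpha8 beta1, averaged 36.1 CPM in control DA, 14.2 in Prdm6-deficient DA, 18.7 in control aorta and 11.6 in Prdm6-deficient aorta, with log2 fold changes of -1.34 (edgeR adjusted p = 5.4e-06, SE 0.18) in the DA and -0.69 (edgeR adjusted p = 0.022, SE 0.18) in the aorta. Ccn2, a matricellular ligand, had -1.25 (edgeR adjusted p = 1.8e-06, SE 0.16) in the DA and an interaction of -1.33 (edgeR adjusted p = 2.1e-04, SE 0.22). Within the first run the calls of Npnt (-1.36) and Fn1 (-0.74) were lost, in the same direction. The interactions, aorta differences and vessel differences of the named ligands were not followed through the alternatives.

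**Figure D4:**
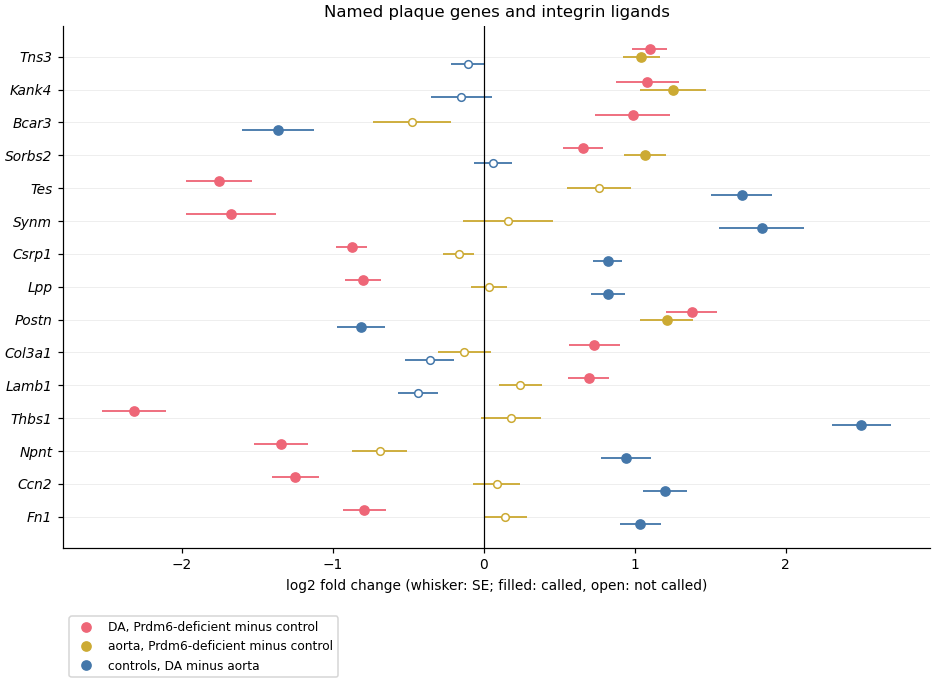
Log2 fold changes with SE of the named plaque genes and matrix ligands between genotypes in the DA and the aorta and between control vessels. Thbs1 is lowest in the DA at -2.32, and Postn is at 1.38 in the DA and 1.21 in the aorta.

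Smooth muscle markers were lower in Prdm6-deficient DA than in control DA and higher in control DA than in the aorta of controls, as were Itga9 and Lims2. Itga7 and Itga10 went the other way in both comparisons, and Itga4 and Itga8 were lower in control DA than in control aorta. Itga9 was also lower in Prdm6-deficient aorta, where the smooth muscle sums of the genotypes overlapped. The sum of 9 smooth muscle markers, Acta2 the most abundant, was 11696, 10220.3, 12429.9, 11335 and 10376 CPM in Prdm6-deficient DA and 14927 to 26449 CPM (median 19464) in control DA. In the aorta it was 10777, 11277, 10679, 9783 and 11517 CPM in Prdm6-deficient libraries and 8806 to 12518 CPM (median 11022) in controls. Of the 9, edgeR called 8 lower in Prdm6-deficient DA, 8 higher in the DA of controls than in their aorta, 7 lower by interaction, and 1 higher, Mylk, in Prdm6-deficient aorta. In RNA of whole vessels, fewer cells of a type and less RNA per cell cannot be told apart, and the part of the smooth muscle markers in the member differences was not tested. The 7 fibroblast markers, led by Dpt, summed to 1741, 2136, 1318, 1642 and 1992 CPM in Prdm6-deficient DA and 743 to 1908 CPM (median 1059.9) in control DA, with Lum called higher and Scara5 lower; they stand beside Itga11, and their part in its rise was not tested. In the aorta the fibroblast sum was 1129 to 1618 CPM in Prdm6-deficient and 1193 to 1606 in control libraries, with Lum called higher, and the Itga11 levels of the genotypes did not overlap. The 6 melanocyte markers, led by Dct, summed to 32.2 to 229 CPM (median 91.7) in control DA, 3.43, 2.44, 2.70, 3.68 and 4.96 in Prdm6-deficient DA, 2.17 to 14.8 in control and 1.201 to 5.09 in Prdm6-deficient aorta. Of them 4 were called lower in Prdm6-deficient DA, and their part in the DA results was not tested. The 9 endothelial markers, led by Pecam1, summed to 1529, 1635, 1102, 1416 and 1374 CPM in Prdm6-deficient and 779.6 to 1326 CPM (median 958) in control aorta, with Tie1, Tek and Emcn called higher, and to 1147 to 1575 in Prdm6-deficient and 973 to 1299 in control DA; their part in the aorta results was not tested. The 11 leukocyte markers, led by C1qa, summed to 119, 113, 151.1, 163 and 111 CPM in Prdm6-deficient and 190.3 to 358 CPM (median 277) in control aorta, beside the difference in Fermt3, and none was called. No marker of any list was at 0 in all libraries.

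For the other marker lists, group medians of the sum follow in the order control DA, Prdm6-deficient DA, control aorta and Prdm6-deficient aorta. Schwann cell and glial markers, led by Mbp, had medians of 29.2, 68.5, 26.4 and 34.7 CPM, with a control DA maximum of 198 in replicate 7 and Fabp7 called higher in Prdm6-deficient DA. Cardiomyocyte markers had medians of 116, 188, 90.7 and 90.2 CPM, and erythroid markers, led by Hba-a1, 5367, 6790.4, 8075 and 4857 CPM. Platelet and megakaryocyte markers, led by Pf4, had 63.6, 52.8, 50.0 and 33.2 CPM, and autonomic neuron markers, led by Stmn2, 18.2, 39.5, 23.7 and 55.8 CPM, with Elavl4 called higher without Prdm6 in both vessels, and lower in the DA than in the aorta of both genotypes. T cell and thymus markers, led by Lck, had 2.34, 5.30, 3.41 and 5.03 CPM, epithelial and mesothelial markers, led by Upk3b, 164, 223, 69.5 and 24.8 CPM, and brown fat markers, led by Fabp4, 115, 138, 173 and 128 CPM. The epithelial and mesothelial sums were 39.8, 223, 17.6, 239.5 and 229 CPM in Prdm6-deficient DA replicates 1, 2, 5, 6 and 7, with replicates 1 and 5 far below the others, and 44.0 to 408 in control DA; 6 of the 7 tested markers had lower group values in Prdm6-deficient DA and none was called. Of the brown fat list, Adipoq and Plin1 were called lower in Prdm6-deficient DA, with control DA means of 8.94 and 5.53 CPM and highest values of 29.1 and 17.8 CPM in control DA replicate 2, while no Prdm6-deficient DA library had more than 1 count of either. The part of these lists in the member differences was not tested.

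**Figure D5:**
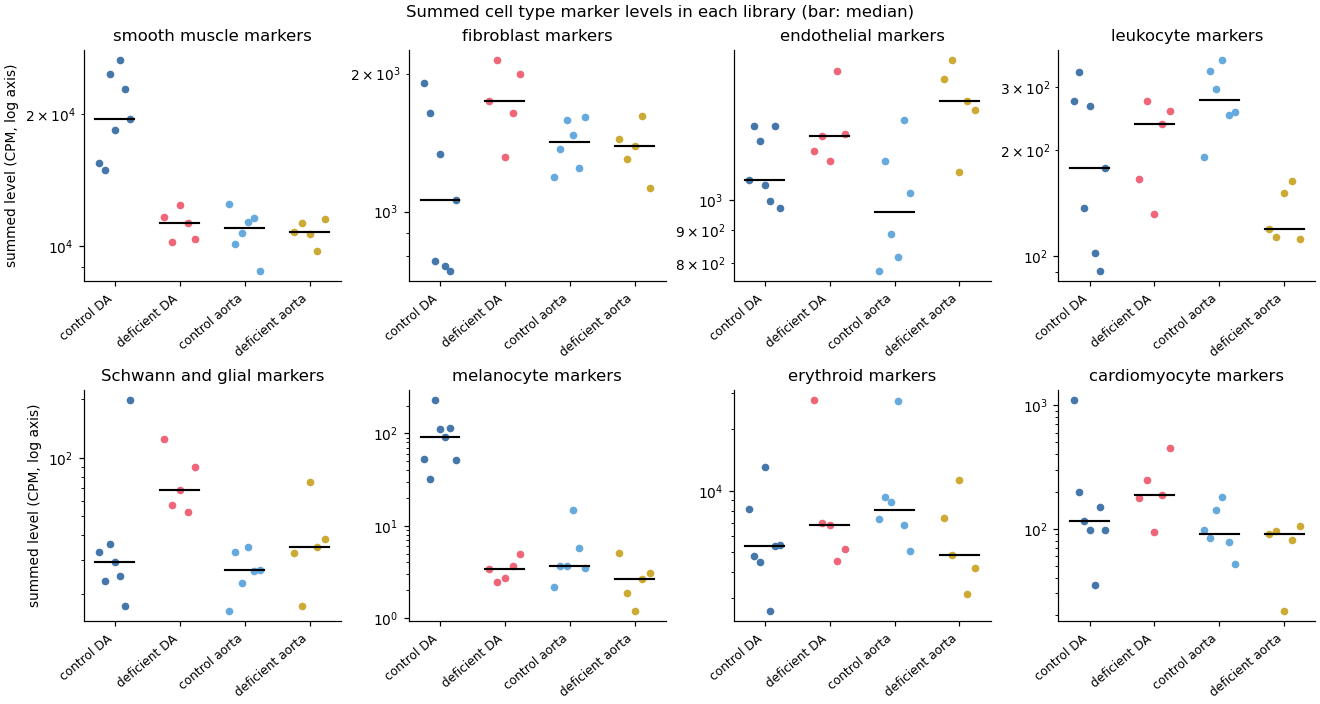
Summed CPM of 8 marker lists in every library (points) with the group median (bar), on a log axis, by vessel and genotype. Smooth muscle sums of control DA lie between 14927 and 26449 CPM, above the 12429.9 CPM of the highest Prdm6-deficient DA library.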

How the data were processed

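The members and lists were chosen with earlier results of these data known. The authors filtered reads with the FASTX-Toolkit (base quality 20 over 90% of bases), removed adapters with tagdust (false discovery rate 0.001), aligned to mm10 with STAR and counted with RSEM on a GENCODE annotation called version 20; versions of STAR and RSEM are not given. The deposited values are RSEM expected counts per gene, not scaled for library size or length. They were rounded for testing. Symbols and coordinates came from GENCODE release M21, and promoters from RefSeq. Columns of 23 of 24 labelled samples were found. Tests used edgeR 4.0.16 in R 4.3.3 with filterByExpr, TMM and the quasi-likelihood F test, 1 mean per vessel and genotype and Benjamini-Hochberg adjustment over 16463 genes; an SE is the log2 fold change over the root of F. Alternatives were DESeq2 1.42.0, upper quartile scaling, no filter on low counts, an adjusted p of 0.05 with no fold limit, the compared groups alone, animal, replicate number or run in the model, each run alone, and leaving out each library, the pools, the Cre-carrying control embryo, or the pair of libraries in doubt. Tables used pandas 2.3.3 and plots matplotlib 3.10.9 in Python 3.11.15.

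Members with values in each library are those called in any of the 5 comparisons, with Ilk and Itgb1. From the lists of other plaque genes and ligands, the up to 4 called genes with the largest change each way in the DA and a mean log2 CPM of at least 1 are named, with called partners of named members. There were 13 lists of cell type markers, each summed.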

Additional observations from a re-analysis of the deposited data

Results flagged for a closer look

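Among the 14 members given by library, 56 groups were examined for a library far from the others of its group, and 3 had one; chance alone would give about 1 in 20. Ilk was at 409 CPM in control aorta replicate 6, below the other controls. Itga4 was at 97.7 CPM in control DA replicate 6, above the others, and Vcl at 180.3 CPM in Prdm6-deficient aorta replicate 3, below the others. For 6 members the genotype difference in the DA and that in the aorta differed by the interaction test of edgeR, as for 2.65% of all genes. The log2 difference between them was -0.76 for Itga1, 1.74 for Itga7, 0.92 for Itga8, -0.61 for Parva, -1.18 for Lims2 and -0.63 for Fermt2. All 6 calls were lost without the 2 pooled libraries, which leaves 3 Prdm6-deficient DA libraries and 1.72% of all genes called. The values were then -0.77, 1.79, 0.91, -0.58, -1.14 and -0.63 in the same order.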

How the results depend on the processing

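Of 25 called member results under 23 left-out libraries and 13 other settings, 785 of 853 values kept the direction and the call, 68 kept the direction and lost the call, and 0 reversed. In every alternative 11 results held. The values kept include those at an adjusted p of 0.05 with no fold limit, a looser setting under which no call could be lost. They also include fits that left out a library outside the groups compared. Such a library enters only the scaling, the filter and the shared estimate of spread, so these fits barely test a call. Leaving out each library in turn, the number of members called ran from 6 to 7 between DA genotypes, 3 to 5 between aorta genotypes, 8 to 10 between control vessels, 0 to 0 between deficient vessels and 3 to 7 for the interaction. The shares of all genes called ran from 4.65% to 5.79%, 1.93% to 2.69%, 4.73% to 5.88%, 0.131% to 0.354% and 2.14% to 3.09% in the same fits. With an adjusted p of 0.05 and no fold limit the counts were 13, 11, 16, 0 and 8 (all genes 12.4%, 5.04%, 11.4%, 0.905% and 5.19%). DESeq2 gave 6, 4, 10, 0 and 7 (all genes 6.42%, 3.87%, 7.23%, 0.851% and 4.85%), and fits of the compared groups alone 5, 6, 7 and 0 (all genes 4.03%, 4.62%, 5.26% and 0.555%). Within the first run of animals 2 members were called between DA genotypes and within the second 5 (all genes 1.10% and 2.37%). The first holds 5 DA libraries, and for the aorta it has 1 control, so no value was taken there. Without the 2 pooled libraries the interaction count was 0 (all genes 1.72%). The cause of these changes was not tested.

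Replicate numbers pair the animals in part: control DA and aorta replicates 1 and 4 share an animal each, and deficient replicate 2 of the aorta is 1 of the 2 pooled in that of the DA. Same-numbered libraries correlated in their deviations from group means by -0.0542 to 0.133 between DA genotypes (5 pairs), and libraries of 1 control animal by -0.0215 to 0.0804 between vessels (6 pairs). Own-numbered partners correlated best for 1 of 5 Prdm6-deficient DA, 1 of 5 Prdm6-deficient aorta and 0 of 6 control aorta libraries, while the DA library of the own animal was best for 3 of 6 control aorta libraries. With the replicate number as a block, the counts were 6, 4, 9 and 0, and 2 for the interaction (Itga1 and Lims2; all genes 4.74%, 2.17%, 5.02%, 0.0972% and 2.05%); with the animal as a block, 7 members (all genes 4.54%) were called between control vessels, without Itga10 and Itga11. Interaction calls ended by the replicate block were those of Fermt2 (-0.59), Itga7 (1.77), Itga8 (0.85) and Parva (-0.57), with edgeR adjusted p from 0.012 to 0.0164. Among the calls of the named partners between DA genotypes, the replicate block ended that of Bcar3 and no other. Members with few counts are the most limited: 4 did not pass the filter on low counts in the main fit, while all 39 were tested without that filter. Itga10 and Itga11 rest on the fewest counts among those called.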
